A study of Mus musculus with 8 samples.

Results

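The 8 genes described here belong to the Bcl2 family, which decides whether a cell keeps or loses the integrity of its mitochondria. They were taken by symbol from the 27923 genes of each table: Bcl2a1a, Bcl2a1b, Bcl2a1d, Mcl1, Bcl2, Bcl2l1, Bcl2l11 and Bax. Each symbol had a row in all 8 tables. Single cells came from lung tumors of 2 genetically engineered mice with p53 fl/fl, which form tumors after intratracheal adenoviral Cre and were taken 16 weeks after initiation. The mice were made by injecting engineered embryonic stem cells into albino C57BL/6 blastocysts, so cells that derive from the host blastocyst do not carry the engineered alleles. In each tumor the Healthy/Tumor Border was illuminated to uncage a protected calcein dye (calcein NVOC), and live cells (calcein violet) positive for the uncaged dye were sorted and profiled by Seq-Well, a nanowell array method that counts the 3′ ends of transcripts with molecular identifiers (UMIs). Each tumor gave 1 Border library and 3 Whole Tumor libraries, the latter being technical arrays of the same tumor without photoactivation. Differences between arrays are therefore technical, each tumor is 1 mouse, and every p-value below measures only the spread between such libraries.

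Members of this family either hold mitochondria intact or open them. Bcl2, Bcl2l1 (Bcl-xL), Mcl1 and the Bcl2a1 genes (A1, also called Bfl-1) encode survival proteins that bind and restrain the killers. Bax is a pore-forming effector, and Bcl2l11 (Bim) is a BH3-only protein that engages the survival proteins and sets the effectors free. Neutrophils are short-lived cells that are known to rest on Mcl1 and to express Bcl2a1, whereas Bcl2 is the survival gene best known from lymphocytes.

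The Bcl2a1 genes need care, because mouse chromosome 9 holds several near-identical copies. In the GENCODE M21 annotation of GRCm38 (mm10), the genome the submitters used, Bcl2a1d lies at chr9:88723285-88731914 on the minus strand, Bcl2a1a at chr9:88956900-88962419 on the plus strand and Bcl2a1b at chr9:89199209-89207827 on the plus strand. The first 60 coding bases of each copy are shown here because they hold 6 of the 12 positions at which the 3 coding sequences of 516 bases differ; capitals mark those positions.
Bcl2a1a: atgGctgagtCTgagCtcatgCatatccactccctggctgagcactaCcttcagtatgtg
Bcl2a1b: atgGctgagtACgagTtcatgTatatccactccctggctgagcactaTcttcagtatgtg
Bcl2a1d: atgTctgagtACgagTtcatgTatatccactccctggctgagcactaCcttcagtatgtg
The coding sequences of Bcl2a1a and Bcl2a1b were 97.9% identical, those of Bcl2a1a and Bcl2a1d 98.6% and those of Bcl2a1b and Bcl2a1d 98.8%. Of all 50-base stretches in the last 300 bases of the transcript, the part a 3′ method reads, 64.5% of those of Bcl2a1a, 74.1% of those of Bcl2a1b and 94.8% of those of Bcl2a1d also occurred in another copy. How reads were split between the copies is thus uncertain, most of all for Bcl2a1d. Each copy is given beside the sum over all Bcl2a1 rows, which also includes the more distant Bcl2a1c.

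The other members stand apart in the genome. Mcl1 lies at chr3:95658788-95663176 on the plus strand, Bcl2 at chr1:106538178-106714274 on the minus strand, Bcl2l1 at chr2:152780668-152831728 on the minus strand, Bcl2l11 at chr2:128126038-128162547 on the plus strand and Bax at chr7:45461697-45466898 on the minus strand. Bcl2 overlaps D630008O14Rik, and Bcl2a1d overlaps Gm10634, each on the opposite strand and with a row in the tables. Gm29094 overlaps Bcl2a1b, Gm45808 overlaps Bax, and Mir3473f and Gm37053 overlap Bcl2, all on the same strand as the member.

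The tables held 4343 barcodes and between 405627 and 2029200 UMIs per library, and 3894 barcodes had at least 200 genes. Cells were sorted into classes by marker lists that hold none of the 8 members, with at least 3 markers detected and at least 2 more than of any other list, and the names below mean "neutrophil-like", "macrophage-like" and so on. The gates took 2491 barcodes (64.0%), of which 1517 were neutrophils (median 2164 UMIs), 431 macrophages (median 4244), 195 epithelial tumor cells (median 3078), 125 B cells (median 2072), 67 T or NK cells (median 2456) and 50 dendritic cells (median 3849.5). In the gated neutrophils Csf3r stood at 1161 UMIs per 1000000 and S100a9 at 6472, against 2.16 for the macrophage gene C1qa, 178 for Csf1r, another macrophage gene (1266 in macrophages), and 0 UMIs of the T cell gene Cd3e, although Ly6g, a defining surface antigen, was near 0 at 0.811. Levels of genes on the gating lists, here Csf3r, S100a9, C1qa, Csf1r and Cd3e, follow from the gate and do not test the label. Of the genes named here only Ly6g is on no list. The second Whole Tumor array of Tumor 2 was shallow (neutrophil median 596 UMIs). Cell names inside the tables carry the number of the other tumor throughout. The labels were followed here, under which the numbers of barcodes by tumor and region are those the study gives. Levels below are UMIs per 1000000 UMIs of the class (CPM), ± SD over libraries with at least 10 such barcodes, and intervals are exact 95% Poisson or binomial intervals that cover counting error only. They are relative to the RNA a class captured, not per cell, and were not compared between genes.

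Mcl1, whose product is a short-lived survival protein, was the most counted member with 21757 UMIs, 66.5% of them in neutrophils, which held 38.3% of all UMIs. Its level was 3906 ± 1037 CPM in neutrophils (n = 8 libraries), 1488 ± 441 in macrophages (n = 7), 1186 ± 285 in B cells (n = 5), 761 ± 21.1 in T or NK cells (n = 3) and 231 ± 56.7 in epithelial tumor cells (n = 3). The 2 dendritic sums, of Border 2 and the third Whole Tumor 2 array, stood at 979 and 1375 CPM. Macrophages, dendritic cells and B cells overlapped in their levels, while the neutrophil mean was highest and the epithelial mean lowest. Among barcodes, 93.3% of neutrophils and 42.1% of epithelial tumor cells held a Mcl1 UMI. After thinning every barcode of at least 500 UMIs to that depth, these shares were 75.4% and 14.1%. The same measure gave 50.7% of macrophages, 48.0% of dendritic cells, 38.5% of B cells and 30.3% of T or NK cells. Shallower barcodes were left out of all shares at 500 UMIs. These were 74 neutrophils, 50 of them in the second Whole Tumor 2 array, and 4 epithelial tumor cells.

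The Bcl2a1 genes, survival genes of activated blood cells, were highest in dendritic cells, neutrophils and macrophages among the 6 classes described. The sum over the copies stood at 611 CPM [514 to 721] in pooled dendritic cells, 314 [296 to 333] in neutrophils and 215 [197 to 236] in macrophages, against 97.2 in T or NK cells, 25.8 in B cells and 7.41 in epithelial tumor cells. The order of neutrophils and macrophages turned between the tumors. Neutrophils averaged 309 CPM and macrophages 136 in Whole Tumor 1, but 117 and 234 in Whole Tumor 2 (n = 3 arrays each). The 14 gated monocytes and 8 plasmacytoid dendritic cells held no Bcl2a1 UMI (exact 95% upper limits 82.0 and 83.3 CPM, where 3 UMIs would be 66.7 and 67.7 CPM). For Bcl2a1b, the copy with most UMIs (1317), the levels were 156 ± 78.8 CPM in neutrophils (n = 8) and 142 ± 49.8 in macrophages (n = 7), with 234 and 543 in the 2 dendritic sums. Neutrophils and macrophages overlapped, and only 1 Bcl2a1b UMI fell in the 195 epithelial tumor cells. Bcl2a1a stood at 74.7 ± 42.4 CPM in neutrophils (n = 8) and 36.0 ± 16.5 in macrophages (n = 7), with no UMI in B cells. The exact 95% upper limit in B cells was 11.9 CPM. Its pooled neutrophil level, 95.2 CPM, was 9.84-fold the lower B cell floor of 3 UMIs over the class (9.67 CPM), so this fold is not a strict lower bound. That fold pools unlike tumors: Border 2 and the third Whole Tumor 2 array held 40 and 44 of the 125 B cells. Bcl2a1a in neutrophils averaged only 33.4 CPM in Whole Tumor 2, against 102 in Whole Tumor 1. Bcl2a1d gave 118 UMIs in all, 46.6% of them in neutrophils, too few to order the classes. At 500 UMIs per barcode, 12.3% of neutrophils, 9.86% of macrophages and 12.0% of dendritic cells held a Bcl2a1 UMI, against 0.524% of epithelial tumor cells.

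Bcl2, the founding survival gene, ran the other way. It gave 231 UMIs in all kept barcodes, and 7.36% of them lay in neutrophils. Its level was 263 ± 81.7 CPM in T or NK cells (n = 3; 248, 351 and 190 in Border 2, the first Whole Tumor 2 array and the third) and 156 ± 118 in B cells (n = 5; 54.0 in Border 2, 67.3 in the second Whole Tumor 1 array and 283, 285 and 89.1 in the Whole Tumor 2 arrays). The lymphocyte classes overlapped. Pooled neutrophils stood at 4.60 CPM [2.68 to 7.36] from 17 UMIs and macrophages at 14.2 from 32 UMIs. The 50 dendritic cells had no Bcl2 UMI, which allows up to 13.1 CPM (3 UMIs), so their level cannot be ranked against neutrophils. Bcl2 UMIs were found in 29.9% of T or NK cells and 15.2% of B cells, against 0.857% of neutrophils, at median depths of 2456, 2072 and 2164 UMIs. At 500 UMIs the shares were 6.06%, 4.92% and 0.346%.

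Bcl2l1, whose product Bcl-xL guards the mitochondria of many cell types, was spread more widely. Neutrophils held 178 ± 18.9 CPM (n = 8), the smallest SD relative to its mean among the members in this class, and epithelial tumor cells 108 ± 31.1 (n = 3). Macrophages stood at 36.5 ± 21.2 CPM (n = 7), T or NK cells at 90.9 ± 77.2 (n = 3) and the 2 dendritic sums at 63.8 and 252, while B cells gave 7 UMIs (22.6 CPM). The dendritic sums lay on either side of the neutrophil level, and that of T or NK cells cannot be placed between its neighbours within its spread. At 500 UMIs, 7.97% of neutrophils held a Bcl2l1 UMI, against 16% of dendritic cells (8 of 50, interval 7.17% to 29.1%), 3.52% of macrophages and 3.14% of epithelial tumor cells.

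The killers of the list differed from each other. Bcl2l11, the BH3-only gene, was at 396 ± 105 CPM in neutrophils (n = 8), 282 ± 140 in B cells (n = 5), 279 ± 133 in T or NK cells (n = 3), 121 ± 45.0 in macrophages (n = 7) and 30.1 ± 21.7 in epithelial tumor cells (n = 3). The lymphocyte classes overlapped each other and the neutrophils. The 8 plasmacytoid dendritic cells stood at 361 CPM [207 to 587] from 16 UMIs, and the 14 monocytes at 267 [138 to 466] from 12 UMIs. Both intervals cover the pooled neutrophil level of 397 CPM. Bax, the effector, was at 57.6 ± 42.5 CPM in neutrophils (n = 8), 61.7 ± 11.2 in macrophages (n = 7), 66.0 ± 52.0 in B cells (n = 5) and 45.5 ± 10.5 in epithelial tumor cells (n = 3), and these classes overlapped throughout. T or NK cells gave 3 Bax UMIs.

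**Figure D1:**
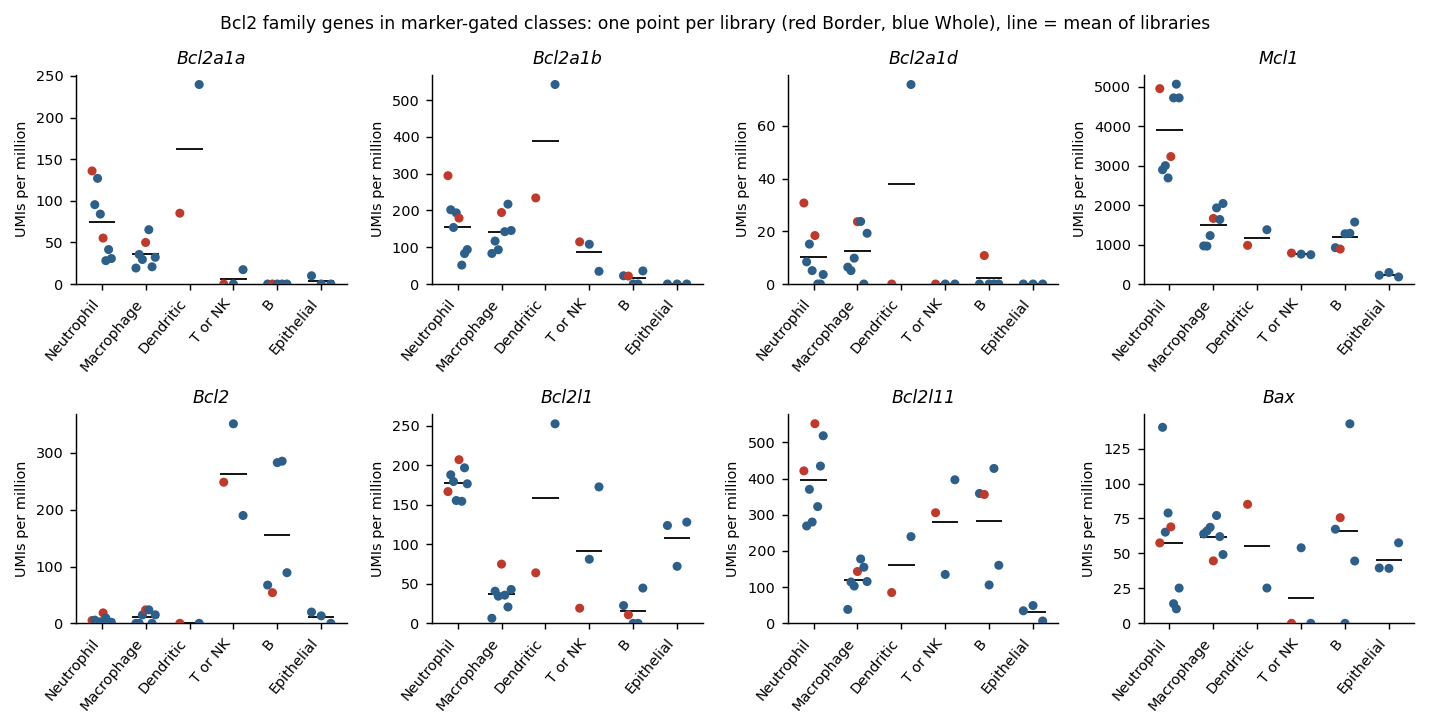
Level of each member (CPM) in 6 marker-gated classes. Each point is 1 library with at least 10 barcodes of the class, red for Border and blue for Whole Tumor, and the line is the mean. Mcl1 was highest in neutrophils (mean 3906), Bcl2 in T or NK cells (mean 263), and Bax overlapped between classes.

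Classes were then compared within libraries on UMIs summed per class and library, with edgeR's quasi-likelihood test over 8354 genes (31 sums, TMM scaling, Benjamini-Hochberg adjustment at 0.05). TMM scaling assumes that most genes do not differ, and scaling by library size alone gave a different median gene in some comparisons. Differences are TMM values unless library size is named. By library size Mcl1 lay at 1.35 against macrophages, 1.98 against dendritic cells and 2.58 against T or NK cells. It lay at 1.85 against B cells and 3.59 against epithelial tumor cells. Bcl2l1 lay at 2.21 against macrophages and 3.23 against B cells. Bcl2 lay at -4.92 against T or NK cells and -4.08 against B cells. The 8 members were all tested. Against macrophages 34.2% of all genes were called, 16.4% higher and 17.8% lower in neutrophils. Of the members 4 were higher and none lower, with a median member log2 difference of 0.57 against -0.02 for all genes. Bcl2l1 was higher by 2.44 ± 0.35 (log2, SE; edgeR adjusted p = 7.57e-09), Bcl2l11 by 1.97 ± 0.31 (adjusted p = 1.6e-07) and Mcl1 by 1.60 ± 0.30 (adjusted p = 6.29e-06). Bcl2a1a was higher by 0.96 ± 0.38 (edgeR adjusted p = 0.0376), but kept its call in 6 of 18 alternatives and lost it without any 1 of 5 libraries (Border 1, each Whole Tumor 1 array or the second Whole Tumor 2 array; 0.73 to 0.92). The Bcl2a1 sum differed by 0.33 and was not called, and Bax was at 0.00 in this fit. All of these 3 average over tumors that went opposite ways in CPM. Bcl2a1a averaged 102 in neutrophils and 28.1 in macrophages of Whole Tumor 1, but 33.4 and 39.3 in Whole Tumor 2 (n = 3 arrays each). Bax averaged 94.8 and 66.2, then 16.5 and 62.8, and the sum turned as given above. Under library size scaling 37.4% of the called genes were higher in neutrophils, against 48.0% under TMM.

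Against dendritic cells, which rest on 2 sums, 15.4% of genes were called, 10.0% higher and 5.33% lower in neutrophils. Mcl1 was higher by 2.64 ± 0.56 (log2, SE; edgeR adjusted p = 0.000182) and Bcl2l11 by 2.16 ± 0.58 (adjusted p = 0.00395), the only called members. Bcl2a1a, at a difference of -1.11, and Bcl2a1b, at -0.97, had dendritic values above the neutrophil ones without passing the test, and the Bcl2a1 sum differed by -0.97 (edgeR adjusted p = 0.233). With a gate of 2 markers Bcl2a1b was called lower (-1.29, edgeR adjusted p = 0.0122) and Bcl2l1 higher (1.25, adjusted p = 0.0478). The median gene lay at 0.61 under TMM and at 0.10 under library size, where Bcl2l11 lost its call (1.52, edgeR adjusted p = 0.0525) and 43.8% rather than 65.3% of called genes were higher. Without the third Whole Tumor 2 array, which leaves 1 dendritic sum that is assumed to vary like the others, 399 rather than 1284 genes were called, and the Bcl2a1a and Bcl2a1b differences turned to 0.27 and 0.10. Without Border 2, 850 genes were called and Bcl2l11 lost its call (1.61, edgeR adjusted p = 0.191).

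Against T or NK cells 22.9% of genes were called, 16% higher and 6.93% lower in neutrophils. Of the members 5 were higher and Bcl2 alone was lower, by -3.98 ± 0.68 (log2, SE; edgeR adjusted p = 1.48e-06). Mcl1 was higher by 3.58 ± 0.49 (adjusted p = 4.39e-09), Bcl2l1 by 2.26 ± 0.58 (adjusted p = 0.0015) and Bcl2l11 by 1.66 ± 0.47 (adjusted p = 0.00429). Bcl2a1b was higher by 1.53 ± 0.58 (edgeR adjusted p = 0.0457), a call kept in 6 of 18 alternatives, and Bcl2a1a (adjusted p = 0.00456) had 1 UMI in T or NK cells, a pooled ratio of 17.6 with a counting interval of 3.14 to 698. That ratio pools tumors of unlike neutrophil level, and Border 2 and the third Whole Tumor 2 array held 20 and 22 of the 67 T or NK cells. The Bcl2a1 sum was higher by 2.02 ± 0.58 (log2, SE; edgeR adjusted p = 0.00488). Under library size the median gene moved from 0.57 to -0.27, and 36.3% rather than 69.7% of called genes were higher. Of the members higher under TMM only Mcl1 then passed: Bcl2a1a lay at 2.98 (edgeR adjusted p = 0.0648), Bcl2l1 at 1.30, Bcl2l11 at 0.67 and Bcl2a1b at 0.66. Bcl2l1 also lost its call without Border 2 (1.67, edgeR adjusted p = 0.0588) and Bcl2l11 without the first Whole Tumor 2 array (1.39, adjusted p = 0.0615); without the third, 1251 rather than 1914 genes were called. With the libraries of each tumor summed, Bcl2l1 (1.80, edgeR adjusted p = 0.225), Bcl2l11 (1.21, adjusted p = 0.420), Bcl2a1b (1.88, adjusted p = 0.252) and Bcl2a1a (adjusted p = 0.0924) all lost their calls, and a gate of 4 markers ended those of Bcl2l11 (1.23, adjusted p = 0.122), Bcl2a1b (1.93, adjusted p = 0.0567) and Bcl2a1a (adjusted p = 0.0622). Bax was called without the first Whole Tumor 2 array (edgeR adjusted p = 0.00675) and with a gate of 4 markers (adjusted p = 0.025), the remaining T or NK sums being too sparse in it for a fold.

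Against B cells 29.9% of genes were called, 20.4% higher and 9.52% lower. The same 5 members were higher: Bcl2l1 by 4.00 ± 0.59 (log2, SE; edgeR adjusted p = 1.89e-08), Mcl1 by 2.83 ± 0.37 (adjusted p = 6.16e-10), Bcl2l11 by 1.69 ± 0.39 (adjusted p = 0.000255), Bcl2a1b (7 B cell UMIs, adjusted p = 3.05e-06) and Bcl2a1a (no B cell UMI, adjusted p = 3.99e-06). The Bcl2a1 sum was higher by 3.74 ± 0.57 (edgeR adjusted p = 4.96e-08). Bcl2 was lower by -3.19 ± 0.66 (log2, SE; edgeR adjusted p = 5.59e-05). Under library size the median gene moved from 0.39 to -0.35, 37.7% rather than 68.2% of called genes were higher, and Bcl2l11 at 0.80 lost its call, as it did with the libraries of each tumor summed (1.48, edgeR adjusted p = 0.104).

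Against epithelial tumor cells 41.2% of genes were called, 18.7% higher and 22.5% lower in neutrophils. Mcl1 was higher by 3.54 ± 0.49 (log2, SE; edgeR adjusted p = 2.07e-09) and Bcl2l11 by 3.24 ± 0.53 (adjusted p = 2.59e-07). Bcl2a1b (adjusted p = 3.64e-10) rested on 1 epithelial UMI, a pooled ratio of 150 with a counting interval of 26.9 to 5950, and Bcl2a1a (adjusted p = 4.68e-06) on 3 UMIs, a ratio of 25.7 with an interval of 8.72 to 125. The Bcl2a1 sum was higher by 5.01 ± 0.68 (log2, SE; edgeR adjusted p = 1.56e-09). Bcl2l1, at 0.47, and Bax, at 0.59, were not called, and Bcl2 at -1.89 missed the threshold (edgeR adjusted p = 0.0715), which it passed in 5 of 18 alternatives: without the third Whole Tumor 1 array (-2.54, adjusted p = 0.03), with DESeq2 (-2.48, adjusted p = 0.0149), with a gate of 4 markers, with a neutrophil list without S100a8, S100a9 and G0s2, and without barcodes that held a second list. The split of called genes was close under both scalings (45.5% and 49.7% higher). Without the second Whole Tumor 1 array 2293 rather than 3441 genes were called.

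**Figure D2:**
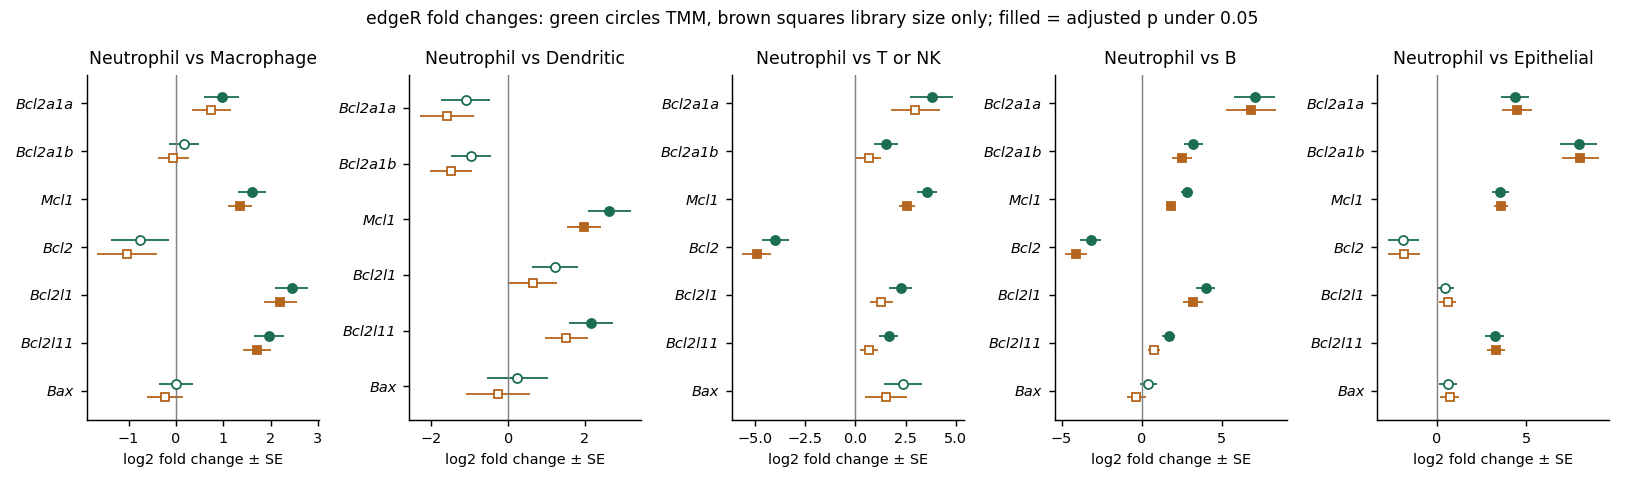
Log2 difference of neutrophils from each other class with its SE, 1 panel per class. Green circles are TMM scaling and brown squares library size alone, and filled symbols had an edgeR adjusted p below 0.05; Bcl2a1d is not drawn, nor is Bcl2 in dendritic cells, which had no UMI of it. Mcl1 is filled under TMM in all 5 panels, and Bcl2 lies below 0 against T or NK cells (-3.98) and B cells (-3.19).

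Within neutrophils, the question was how the members varied between the Border and the Whole Tumor of each mouse. Mcl1 stood at 4949 CPM [4813 to 5088] in Border 1, against 2894, 2998 and 2686 in the 3 arrays of Whole Tumor 1. In Tumor 2 the order was turned: Border 2 stood at 3229 CPM [2994 to 3477], against 4715, 5062 and 4714 in its arrays. The Border lay outside the range of its arrays in both tumors, above it in Tumor 1 and below it in Tumor 2. At 500 UMIs per barcode, 83.2% of Border 1 neutrophils held a Mcl1 UMI against 61.8%, 71.9% and 66.2% in the arrays, and 70.3% in Border 2 against 80.9%, 79.3% and 79.2%.

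Bcl2a1b showed Border values above both sets of arrays: 295 CPM [262 to 330] in Border 1 against 202, 154 and 194 in Whole Tumor 1, and 179 [128 to 245] in Border 2 against 51.5, 82.8 and 93.6 in Whole Tumor 2. Bcl2a1a stood at 136 CPM in Border 1 against 95.3, 127 and 84.0, and at 55.2 in Border 2 against 28.1, 41.4 and 30.6. The sum over the copies was 491 CPM in Border 1 against 317, 320 and 290, and 262 in Border 2 against 88.9, 124 and 139. For all of these the Border was the highest library of its tumor, though the counting intervals of Bcl2a1a in Border 1 [114 to 161] and Border 2 [28.5 to 96.4] reach into the range of the arrays. At 500 UMIs the share of neutrophils with a Bcl2a1a UMI was 5.25% in Border 1 and 5.76% in the third array of Whole Tumor 1. For the Bcl2a1 sum it was 20.7% in Border 1 against 14.7%, 12.8% and 15.1%. Bcl2a1d gave 30.7 CPM in Border 1 and no UMI in 2 of the Whole Tumor 2 arrays.

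The remaining survival genes were flatter or too sparse. Bcl2l1 ranged from 154 to 207 CPM over the 8 libraries, with Border 1 (167) inside the range of its arrays (188, 179 and 155) and Border 2 (207) just above its own (154, 197 and 177). Bcl2 gave 0 to 5 UMIs per library and did not pass the filter on low counts in the fits within neutrophils.

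Of the killers, Bcl2l11 stood at 421 CPM [382 to 464] in Border 1 against 269, 370 and 280 in the arrays, and at 552 [458 to 660] in Border 2 against 323, 435 and 519. Both Borders were above their arrays, Border 2 only within its counting interval. For Border 2 this order holds in CPM but not in the TMM-scaled fit below. There the Tumor 2 difference was negative and not called, and it stayed negative in 14 of 17 alternatives (-0.26 to 0.56). At 500 UMIs per barcode, 17.8% of Border 1 neutrophils held a Bcl2l11 UMI, against 14.7%, 17.9% and 13.7% in the arrays, and 22.8% in Border 2 against at most 20.4% in its arrays, so that by this measure Border 1 was not above all of its arrays. Bax stood at 57.5 CPM in Border 1 against 140, 65.2 and 78.9, and at 69.0 in Border 2 against 14.03, 10.4 and 25.2. Bax was thus lowest of its tumor in Border 1 and highest in Border 2 by CPM, though the Whole Tumor 2 arrays together held only 18 Bax UMIs. In the fit below neither Border difference of Bax was called. These were -0.12 in Tumor 1 (edgeR adjusted p = 0.899) and 1.30 in Tumor 2 (adjusted p = 0.186). The first Whole Tumor 1 array, where Bax was highest, also held most UMIs of the macrophage list in its neutrophil sum, 10.3 per 10000 over a range of 2.72 to 10.3, and the part of these in the Bax value was not tested.

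**Figure D3:**
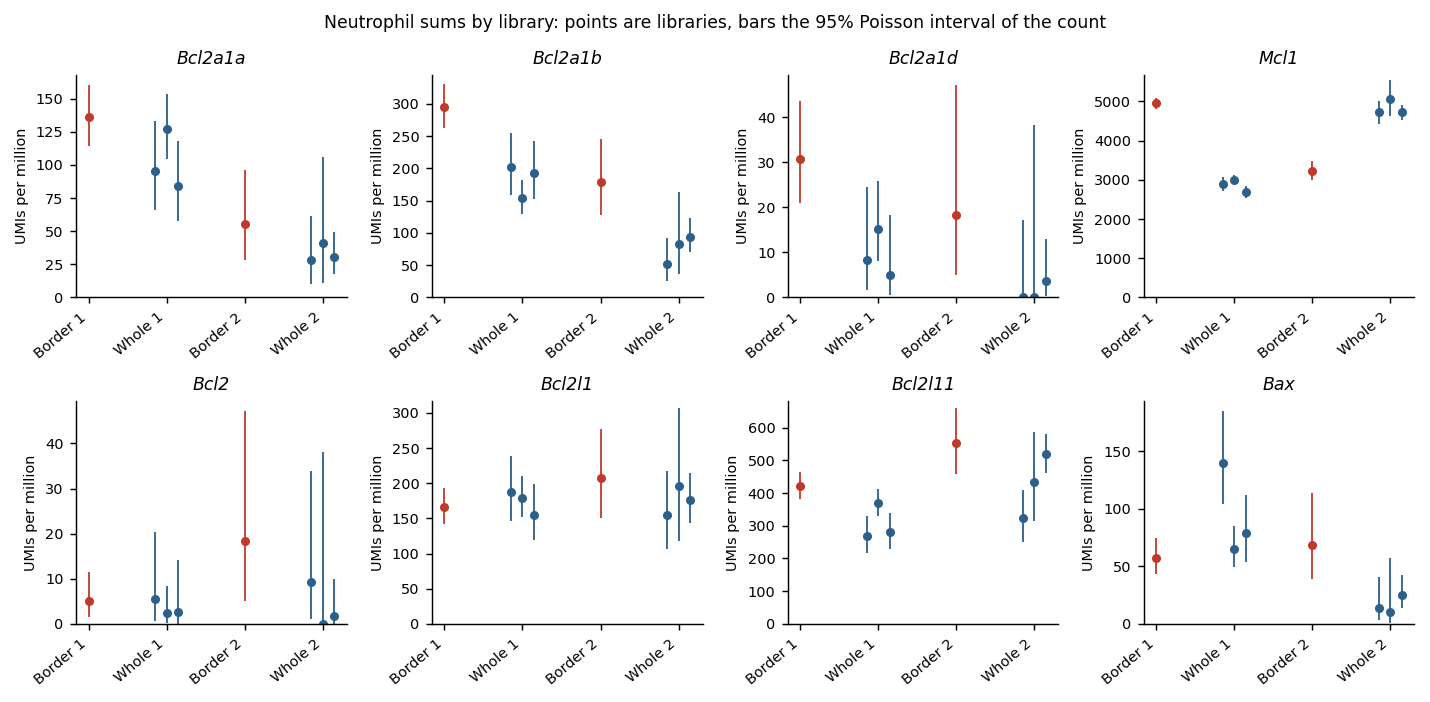
Level of each member in neutrophils (CPM) in the 8 libraries, ordered as Border 1, Whole Tumor 1, Border 2 and Whole Tumor 2, with 95% Poisson intervals. Mcl1 was highest at Border 1 among the libraries of Tumor 1 (4949) and lowest at Border 2 among those of Tumor 2 (3229). Bcl2a1b was highest at the Border in both tumors by CPM, an order not resolved in Tumor 2 at equal depth.

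Each Border is 1 library, so in the tests below its spread is assumed to be that of the Whole Tumor arrays, which give the 4 residual degrees of freedom. In the fit of all 8 neutrophil sums (edgeR quasi-likelihood, 6295 genes, 7 members tested), 8.88% of genes were called between Border and Whole in Tumor 1, 7.20% higher and 1.68% lower at the Border. Of the members 3 were higher and none lower: Mcl1 by 1.34 ± 0.24 (log2, SE; edgeR adjusted p = 7.58e-05), Bcl2a1b by 1.25 ± 0.28 (adjusted p = 0.00158) and Bcl2l11 by 0.99 ± 0.27 (adjusted p = 0.0104). The Bcl2a1 sum was higher by 1.21 ± 0.26 (log2, SE; edgeR adjusted p = 0.000737). The member median was 0.99 against -0.05 for all genes. Scaling mattered here: by library size the median gene lay at -0.61 and 15.5% rather than 81.0% of called genes were higher, and Mcl1 (0.77) kept its call, while Bcl2a1b (0.69, edgeR adjusted p = 0.0670) and Bcl2l11 (0.42, adjusted p = 0.206) did not. Without the third Whole Tumor 1 array 360 rather than 559 genes were called and Bcl2l11 (0.90, edgeR adjusted p = 0.0504) missed the threshold, and without the second Bcl2a1a passed it (1.12, adjusted p = 0.0472). DESeq2 did not call Bcl2l11 (0.90, adjusted p = 0.0611).

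In Tumor 2, 8.96% of genes were called, 3.37% higher and 5.59% lower at the Border. Mcl1 was the 1 called member, lower by -0.99 ± 0.28 (log2, SE; edgeR adjusted p = 0.0167). The Bcl2a1 sum had a difference of 0.67 (edgeR adjusted p = 0.230) and was not called. By library size the median gene moved from 0.06 to 0.51, 78.6% rather than 37.6% of called genes were higher, Mcl1 at -0.57 missed the threshold (edgeR adjusted p = 0.0819), and Bcl2a1b (1.19) and Bax (1.76) were called higher. Without the filter on low counts Mcl1 (-1.005, edgeR adjusted p = 0.140) was not called.

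The Border effect on Mcl1 differed between the tumors by 2.32 ± 0.38 (log2, SE; edgeR adjusted p = 8.37e-06 for the interaction), in a comparison that called 11.5% of genes (8.04% higher and 3.43% lower). It kept its call in 16 of 16 alternatives, with values from 1.35 (library size scaling) to 2.42, none of which could leave out a Border library. No other member was called under TMM, and for the Bcl2a1 sum the difference of 0.54 (edgeR adjusted p = 0.480) was within its error. Bcl2l11 passed without the first Whole Tumor 2 array (1.25, edgeR adjusted p = 0.0412). By library size, under which 12.4% rather than 70.1% of called genes were higher and the median gene lay at -1.12, Bax was called as well (-2.43).

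Between the Whole Tumor arrays of the 2 mice 43.1% of genes were called (21.0% higher and 22.1% lower in Tumor 1), so the 5 called members of 7 stand against a high background. Mcl1 averaged 2860 ± 159 CPM in Tumor 1 and 4831 ± 200 in Tumor 2 (n = 3 arrays each), a difference of -1.55 ± 0.19 (log2, SE; edgeR adjusted p = 8.92e-10) that passed in 19 of 19 alternatives (-1.61 to -0.73). Bcl2l11 was lower in Tumor 1 by -1.30 ± 0.22 (adjusted p = 1.49e-06) and Bcl2l1 by -0.82 ± 0.24 (adjusted p = 0.00423). Bcl2l1 nevertheless had nearly equal CPM means, 174 ± 16.9 and 176 ± 21.2, and by library size its difference was 0.03. Bax was higher in Tumor 1 by 1.31 ± 0.41 (edgeR adjusted p = 0.00872) and Bcl2a1a by 0.88 ± 0.35 (adjusted p = 0.0392), while the Bcl2a1 sum (0.52, adjusted p = 0.0699) was not called. Bax lost its call without the first Whole Tumor 1 array (0.94, edgeR adjusted p = 0.0777), Bcl2l1 without the third Whole Tumor 2 array (-0.71, adjusted p = 0.0522), and Bcl2a1a without Border 2, the second Whole Tumor 1 array, the first Whole Tumor 2 array or the third (0.70 to 0.92). DESeq2 did not call Bcl2a1a (0.97, DESeq2 adjusted p = 0.0970). Without the filter on low counts neither Bcl2a1a (0.93, edgeR adjusted p = 0.104) nor Bcl2l1 (-0.75, edgeR adjusted p = 0.0607) was called. Calls were kept in 13 of 19 alternatives for Bcl2a1a, 15 of 19 for Bcl2l1 and 17 of 19 for Bax. By library size Bcl2a1b was also higher (1.21), 83.5% rather than 48.8% of called genes were higher, and the median gene moved from 0.26 to 1.12. These arrays compare a pair of mice, and mouse and library preparation cannot be told apart.

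**Figure D4:**
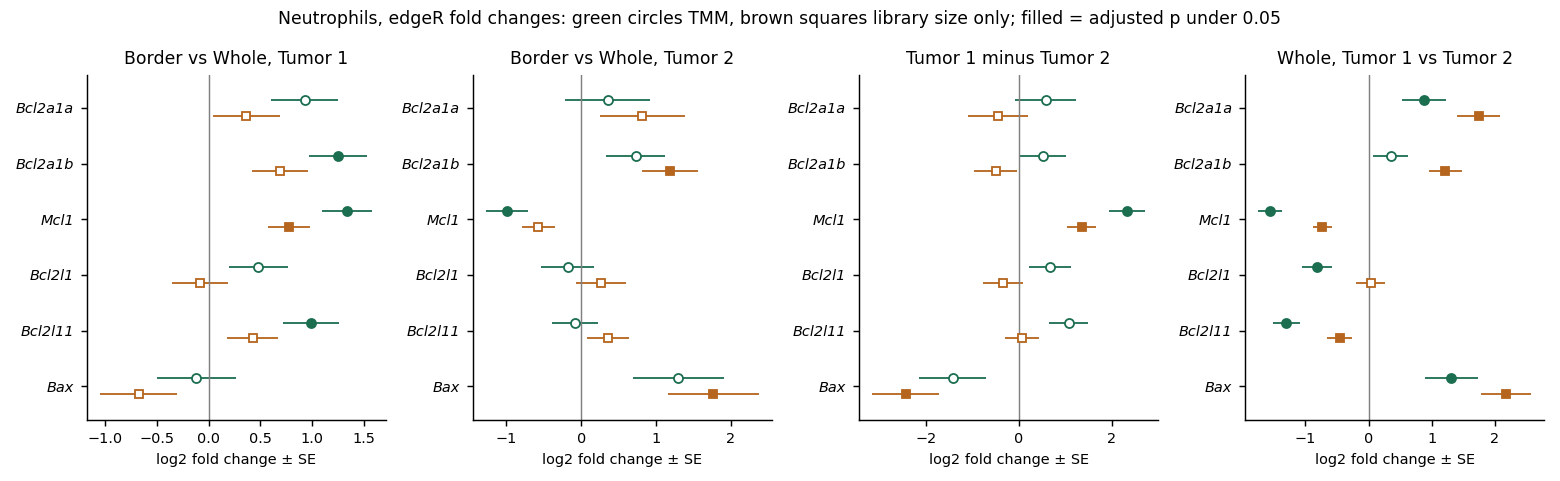
Log2 difference in neutrophils for 4 comparisons (Border against Whole in Tumor 1 and in Tumor 2, the difference of those, and Whole Tumor 1 against Whole Tumor 2) with SE, for 6 members. Green circles are TMM scaling, brown squares library size alone, filled where the edgeR adjusted p was below 0.05. Mcl1 lies at 1.34 in Tumor 1, -0.99 in Tumor 2 and 2.32 for the difference, filled under TMM in each.

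Neutrophils of these tumors were not of 1 kind, and their makeup moved with the libraries. With marker lists for mature-type cells and for the Siglecf-type cells known from lung tumors, 654 and 528 barcodes were assigned. Mature-type cells were 25.3% of neutrophils in Border 1, against 15.9%, 14.1% and 19.7% in Whole Tumor 1, but 54.5% in Border 2 and 82.0%, 88.7% and 89.4% in Whole Tumor 2. Among mature-type cells alone the Mcl1 difference at the Border was 1.07 in Tumor 1 (edgeR adjusted p = 0.0962) and -0.93 in Tumor 2 (adjusted p = 0.186), neither called, in sums of fewer UMIs. Among Siglecf-type cells alone it was 1.09 in Tumor 1 (edgeR adjusted p = 0.00297). The Tumor 1 difference of Bcl2l11 was 0.27 in mature-type cells (edgeR adjusted p = 0.806) and 0.83 in Siglecf-type cells (adjusted p = 0.0529), called in neither, and that of Bcl2a1b was 1.22 (adjusted p = 0.149) and 1.05 (adjusted p = 0.0285). Bcl2l11, lower in Whole Tumor 1 than in Whole Tumor 2 over all neutrophils, differed by 0.01 between them among mature-type cells. The Bcl2l1 difference was -0.04 there (edgeR adjusted p = 0.945) and that of Bax 1.48 (adjusted p = 0.268), so neither kept its call. Mcl1 (-0.91, edgeR adjusted p = 0.00766) and Bcl2a1a (1.75, adjusted p = 0.0113) kept theirs, and Bcl2a1b passed (1.02, adjusted p = 0.0467).

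The subgates were compared within the 5 libraries that held at least 10 barcodes of each. Bcl2l11 was 525, 294, 765, 568 and 719 CPM in mature-type cells of Border 1, the 3 Whole Tumor 1 arrays and Border 2, against 375, 270, 288, 254 and 310 in Siglecf-type cells of the same libraries. Bcl2l1 was 207, 181, 233, 238 and 214 CPM in mature-type against 138, 142, 152, 123 and 172 in Siglecf-type cells. Both genes were higher in mature-type cells in 5 of 5 libraries, Bcl2l1 without overlap.

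Of 3987 genes in this fit 7.60% were called, 6.04% higher and 1.56% lower in mature-type cells. Bcl2 and Bcl2a1d did not pass the filter on low counts, and of the other 6 members 2 were higher, Bcl2l11 by 1.20 ± 0.24 (log2, SE; edgeR adjusted p = 0.000895) and Bcl2l1 by 0.88 ± 0.27 (adjusted p = 0.0400), the latter a call kept in 6 of 15 alternatives and lost without Border 1 or any 1 of the Whole Tumor 1 arrays (0.81 to 0.93). Without Border 1, or without the second Whole Tumor 1 array, 138 rather than 303 genes were called. With the libraries of each tumor summed, Bcl2l11 missed the threshold (1.42, edgeR adjusted p = 0.0553) and Mcl1 passed it (1.03, adjusted p = 0.0215). Both a killer gene and a survival gene were thus among the called. Mcl1 stood at 5486, 2850, 4345, 3003 and 2935 CPM in mature-type and 4581, 2910, 2742, 2689 and 4385 in Siglecf-type cells, in no constant order. The Bcl2a1 sum (571, 294, 477, 348 and 223 against 468, 300, 289, 288 and 447 CPM) and Bax (76.1, 113, 22.2, 18.3 and 59.9 against 47.4, 137, 61.3, 84.6 and 51.6 CPM) overlapped, and none of these 3 was called with libraries kept apart. By library size 33.1% rather than 79.5% of called genes were higher in mature-type cells, and the median gene moved from -0.07 to -0.39.

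**Figure D5:**
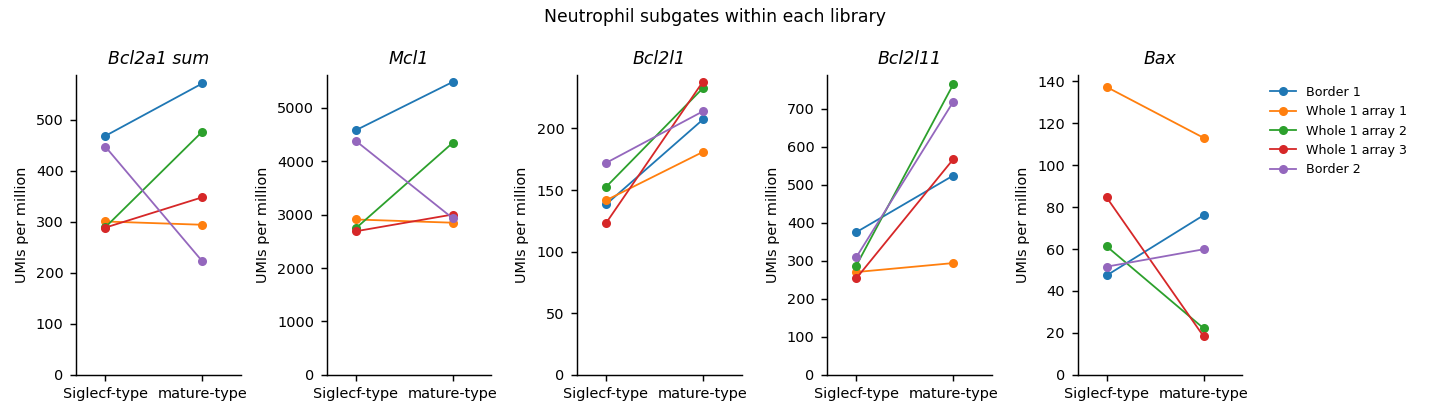
Levels (CPM) of the Bcl2a1 sum, Mcl1, Bcl2l1, Bcl2l11 and Bax in Siglecf-type and mature-type neutrophils of the same library, 1 line per library (Border 1, the 3 Whole Tumor 1 arrays and Border 2). All 5 lines rise toward mature-type cells for Bcl2l11 and Bcl2l1, and the lines of Mcl1, the Bcl2a1 sum and Bax cross.

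In macrophages, Border 2 was compared with the Whole Tumor 2 arrays over 5013 genes, of which 1.78% were called (1.02% higher and 0.758% lower at the Border). Mcl1 stood at 1661 CPM in Border 2, inside the range of the arrays (1928, 1634 and 2039). Bcl2l1 stood at 74.9 CPM in Border 2, above the arrays (35.6, 20.7 and 42.8), which held 6, 2 and 20 UMIs of it. None of the 6 members tested passed the edgeR test or DESeq2, and none had an unadjusted edgeR p under 0.05 (Bcl2l1 0.98 ± 0.51 log2, SE; adjusted p = 0.464). Their median difference was 0.10 against -0.01 for all genes.

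Around the members, the 17 other genes of the family on the list, including Bak1 and the BH3-only genes, were measured sparsely, and 9 to 11 entered the larger fits. Against macrophages 3 of 11 were higher and none lower in neutrophils, where 16.4% of all genes were higher, among them Pmaip1 (Noxa, the BH3-only partner of Mcl1) at 2.171 and Bnip3 (a mitochondrial outer membrane protein) at 1.54. Pmaip1 was higher also against T or NK cells (3.44), B cells (1.62) and epithelial tumor cells (1.21), and Bnip3 against dendritic and B cells. In all, 1 of 11 was higher against dendritic cells (10.0% of all genes), 1 against T or NK cells (16% of all genes) and 4 against B cells (20.4% of all genes), and against epithelial tumor cells 1 was higher and 3 lower (18.7% and 22.5% of all genes). At the Border of Tumor 1, Pmaip1 (1.32) and Bnip3 (1.01) were higher of 9 tested (7.20% of all genes), and none of 9 was called in Tumor 2 (8.96% of all genes). Pmaip1 was also the 1 relative whose Border effect differed between the tumors, by 2.16 on the log2 scale, 1 of 9 tested beside 11.5% of all genes. Between the Whole Tumors 2 of 9 were higher and 2 lower in Tumor 1, Pmaip1 (-1.43) among the latter, beside 21.0% and 22.1% of all genes.

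Of 24 genes for caspases, inhibitors of apoptosis and death receptors, 15 were tested between classes. In neutrophils 5 were higher and 2 lower than in macrophages, against 16.4% and 17.8% of all genes. Fas, the death receptor, at 3.30 and Birc3 (cIAP2, an inhibitor of apoptosis) at 2.01 were among those higher, and Ripk1, a kinase of death receptors, at -0.90 was among those lower. Fas was higher also against dendritic cells (3.13), T or NK cells (2.92), B cells (3.33) and epithelial tumor cells (2.95), and Birc3 was higher against the same classes (2.08, 2.15, 1.61 and 2.51). Cflar, which blocks Casp8, was higher against T or NK cells (1.84) and B cells (3.10), Casp1, the inflammatory caspase, against T or NK cells, and Apaf1, the apoptosome scaffold (2.34), and Birc6 (1.05) against epithelial tumor cells.

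Within neutrophils, Fas was higher in mature-type than in Siglecf-type cells (1.64), 1 of 11 tested, where 6.04% of all genes were higher. At the Border it was lower in Tumor 2 (-1.20), while in Tumor 1 Cflar was higher (1.15) and Casp2 lower (-2.57), of 16 tested in each tumor. Over all genes 7.20% were higher and 1.68% lower in Tumor 1, and 5.59% were lower in Tumor 2. The Border effect of Fas (1.96) and Birc3 (1.35) differed between the tumors, 2 of 16 beside 11.5% of all genes. Between the Whole Tumors 3 of 16 were higher and 3 lower in Tumor 1, with Birc3 at -2.34, and Fas at -2.57 and Birc2 (cIAP1) at -1.97, these 2 named after their values were seen. In macrophages of Tumor 2, Casp8, the initiator caspase of death receptors, was lower at the Border (-1.47), 1 of 8 tested, where 0.758% of all genes were lower.

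Of 8 genes that stabilise or degrade the Mcl1 protein, 6 were tested between classes. Ddb1, a ubiquitin ligase adaptor, was the 1 called against macrophages, at -1.07, where 17.8% of all genes were lower, and against epithelial tumor cells, at -2.34, where 22.5% were lower. The kinase Gsk3b was 1 of 6 higher against B cells (1.35), where 20.4% of all genes were higher. Between the Whole Tumors, where 22.1% of all genes were lower and 21.0% higher in Tumor 1, 3 of 5 were lower: the ligase Huwe1 (-1.08), the deubiquitinase Usp9x (-0.84) and the kinase Gsk3b (-1.42), while Ddb1 (1.31) was higher. Usp9x, 1 of 5 tested, also differed in its Border effect between the tumors (1.27), as 11.5% of all genes did. All of these calls are edgeR quasi-likelihood calls under TMM scaling, and they concern transcripts, not the protein.

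The genes most like each member were sought over the 6 class levels, by Pearson's r of log2(CPM + 10) among genes with at least 200 UMIs. With 6 points that share libraries, and many genes searched, the values are a description. Mcl1 was most like Zfp36, which encodes an mRNA decay factor (r = 0.98), Stk40 (0.98) and Fem1c (0.96). The Bcl2a1 sum was most like Ttyh3 and Arrb2 (both 0.99) and Spag9 (0.98), and Bcl2 like Zbtb1 (0.999), Xrn1 (0.99) and Snw1 (0.98). Bcl2l1 was most like Sin3b (0.98), Slc9a3r1 (0.96) and Tes (0.96), Bcl2l11 like Tspyl1 and Neurl3 (both 0.99) and Zbtb21 (0.98), and Bax like Rnf34 (0.98), Pbx2 and Sptlc1 (both 0.96).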

How the data were processed

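Single-cell tables of 8 libraries were analysed. Values are whole UMI counts per gene and barcode, deposited by the authors; per the submitters' processing notes, reads were handled with bcl2fastq 2.17.1.14 and STAR 2.5.2b on mm10, following the Drop-seq protocol. The members, marker lists, gates and tests were chosen with earlier results of these data known. Barcodes under 200 genes were dropped, and none was removed as a doublet: Scrublet marked 57 (1.46%), 16 of them neutrophils. Between libraries 10 barcode sequences were shared; leaving out the 56 kept barcodes with such a sequence or a run of a single base was an alternative added after the data were seen. UMIs were summed per class and library (at least 10 barcodes) and tested with edgeR 4.0.16 in R 4.3.3 (TMM, filterByExpr, quasi-likelihood, Benjamini-Hochberg at 0.05); class fits carried library as a term. Named were all members, the 3 genes most like each in pattern and, from 3 pathway lists together, up to 6 called genes per comparison with most UMIs, except where stated. On simulated data with 200 genes changed 4-fold, 68.5% were recovered against macrophages (2.14% of calls false) and 76.5% for the Tumor 1 Border (3.77% false). All simulated sums shared 1 profile apart from those genes, and the Border was given the spread of the fit. These rates therefore do not test the scaling or the spread of a Border library. Alternatives comprised DESeq2 1.42.0, library size scaling, no filter, other gates, doublet removal, summed tumors and leaving out each library. Sequences and loci came from GENCODE M21 (GRCm38), and shares from Python 3.11.15. Replicate numbers did not pair arrays (correlations of deviations from -0.015 to 0.014). Part of the mouse genotype and 1 gene of the pathway lists are not reported here.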

Additional observations from a re-analysis of the deposited data

Results flagged for a closer look

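The effect of the Border on Mcl1 in neutrophils differed between the tumors by 2.32 (log2; edgeR quasi-likelihood interaction, adjusted p = 8.37e-06). What drew attention was this difference between groups: Mcl1 was above all 3 Whole Tumor arrays in Border 1 and below all 3 in Border 2. Each tumor is 1 mouse with 1 Border library, and the share of mature-type neutrophils also moved in opposite directions (25.3% in Border 1 against 14.1% to 19.7%, and 54.5% in Border 2 against 82.0% to 89.4%). Among mature-type cells alone the difference was 1.997 (edgeR adjusted p = 0.0236). Over all neutrophils it was 1.35 by library size (edgeR adjusted p = 0.00171), where the median gene lay at -1.12 rather than -0.11.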

How the results depend on the processing

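Of 1351 log2 differences of the members recomputed under the alternatives, 1216 kept their direction and side of the threshold, 70 lost a call, 21 gained a call and 44 changed sign; the cause was not tested. Of the class levels 64 moved by over 1 SD or their interval and 584 did not; of the shares of positive barcodes, recomputed at other thinning depths, 90 moved and 72 did not. Counts of called genes moved by over 1.5 times as follows. With the libraries of each tumor summed, calls fell from 2854 to 860 against macrophages, 1914 to 632 against T or NK cells, 2502 to 1185 against B cells and 3441 to 2078 against epithelial tumor cells. DESeq2 called 273 rather than 559 genes for the Border of Tumor 1, 302 rather than 564 for Tumor 2, 336 rather than 722 for their difference and 30 rather than 89 in macrophages. Library size scaling called 1144, 1431 and 4198 for the Border of Tumor 1, the difference and Whole Tumor 1 against 2 (2714 under TMM). Without the filter 185 rather than 303 were called between subgates, 292 for the Tumor 2 Border and 434 for the difference. Mature-type cells alone gave 85, 82, 112 and 939 for Tumor 1, Tumor 2, their difference and the Whole Tumors, and Siglecf-type cells 288 for Tumor 1. In macrophages a gate of 2 markers gave 158, of 4 markers 56, and leaving out barcodes with a second list 24.

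Leaving out each library gave 2371 to 2740 calls against macrophages, 399 to 1285 against dendritic, 1251 to 1860 against T or NK, 1957 to 2453 against B and 2293 to 3368 against epithelial tumor cells, 138 to 300 between subgates, 360 to 631 and 384 to 587 for the Borders, 543 to 781 for their difference, 1868 to 2700 between Whole Tumors and 36 to 115 in macrophages. Replicate numbers did not pair the arrays, and the fit with the replicate block called 2502 genes between Whole Tumors, with Mcl1 at -1.44, and changed no call of a member. The other comparisons have 1 Border library a tumor or compare within libraries, so no block was added.

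Values that changed sign were not called before, apart from Bcl2l1 and Bcl2l11 between Whole Tumors (0.032 by library size and 0.011 in mature-type cells). By library size they were Bcl2a1b against macrophages (-0.055; DESeq2 -0.064), Bax against dendritic (-0.27; DESeq2 -0.20) and B cells (-0.33), Bcl2l1 at the Borders (-0.083 and 0.26), Bcl2l11 in Tumor 2 (0.36) and in macrophages (0.017), and Bcl2a1a (-0.45), Bcl2a1b (-0.50) and Bcl2l1 (-0.35) in the difference. In mature-type cells they were Bax in Tumor 1 (1.13), Bcl2l1 (0.12) and Bcl2l11 (0.56) in Tumor 2 and Bcl2l11 in the difference (-0.28). Gates, doublets, barcodes and filters turned Bax against macrophages (0.022 and 0.0029), between subgates (0.019 and 0.0066) and in Tumor 1 (0.029), Bcl2l11 in macrophages (0.017, 0.0039 and 0.0061), and summed tumors turned Bcl2a1a between subgates (-0.038). Leaving out a library moved Bcl2a1b (-0.068 to 0.31) and Bax (-0.29 to 0.19) against macrophages, Bcl2a1a (-1.84 to 0.27), Bcl2a1b (-1.69 to 0.10) and Bax (-0.24 to 0.83) against dendritic cells, Bax between subgates (-0.54 to 0.25) and in Tumor 1 (-0.40 to 0.26), Bcl2l11 in Tumor 2 (-0.26 to 0.23) and in macrophages (-0.24 to 0.094), and Bcl2a1d in the difference (-4.18 to 0.17).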
